A study of Homo sapiens with 18 samples.

Results

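The proneural basic helix-loop-helix (bHLH) factors *NEUROG3*, *NEUROD1*, *ATOH1*, *ATOH8* and *ASCL2* and the E proteins *TCF3*, *TCF4* and *TCF12* were taken by gene symbol from a bulk RNA sequencing table of human pancreatic progenitors. Of these 8 genes, 7 had a value, among 21944 genes with a value in all, and *ASCL2* is not analysed here. The progenitors were differentiated to day 19, dissociated with accutase and reseeded on wells coated with the laminin isoform LN411 or with fibronectin (FN). RNA was collected after 3, 6 or 24 h on either matrix, which gives 6 groups of 3 samples and a total of 18. The sources conflict on the cell line, which the sample labels give as HUES4, while the growth protocol and the study's account of this experiment name an SA121-derived line with a GFP reporter for *NEUROG3* (NGN3-GFP). Both are human embryonic stem cell lines. The value used for each gene is the authors' mean normalised count over samples, so that the FN and LN411 samples and the 3 times enter as a single mean. No value of a single sample was used, the spread between samples is not known, and no comparison of LN411 with FN or between times was made. The depth of each library is unknown. In bulk RNA, a high level in few cells and a low level in many cells cannot be told apart.

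Proneural bHLH factors switch precursor cells towards a differentiated fate, and *NEUROG3* does so for the endocrine cells of the pancreas. They work in pairs, usually with a broadly expressed E protein, and the pair binds DNA at E-boxes, short motifs with the letters CANNTG. ID proteins lack the DNA-binding part and hold E proteins in inactive pairs. Several HES and HEY repressors act downstream of Notch and keep progenitors undifferentiated, whereas HES6 inhibits HES1 activity. *NEUROG3* itself is a gene that HES1 represses in the developing pancreas.

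The genes of both classes were built differently. *NEUROG3* (ENSG00000122859, chromosome 10 of GRCh38, 69571698 to 69573422, minus strand) spans 1725 bases and has 1 annotated transcript with 2 exons. *ATOH1* (ENSG00000172238, chromosome 4, 93828753 to 93830964, plus strand) has a single exon. *NEUROD1* (ENSG00000162992, chromosome 2, 181668295 to 181680827, minus strand) has 2 exons in its canonical transcript, and *ATOH8* (ENSG00000168874, chromosome 2, 85751344 to 85791383, plus strand) has 3. The E protein genes had 19 exons in the canonical transcript of *TCF3* (ENSG00000071564, chromosome 19, 1609291 to 1652615, minus strand), 20 in that of *TCF4* (ENSG00000196628, chromosome 18, 55222185 to 55664787, minus strand) and 21 in that of *TCF12* (ENSG00000140262, chromosome 15, 56918623 to 57299281, plus strand). Spans of the E protein genes ran from 43325 bases for *TCF3* to 442603 bases for *TCF4*. The annotation gives *TCF4* 93 transcripts, against 21 for *TCF3* and 28 for *TCF12*. The union of its exons came to 29166 bases, compared with 8343 bases for its longest transcript.

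The stretches just upstream of the start sites are shown for 4 members that differ in their E-boxes, the motif to which these same factors bind. Each is 250 bases long, ends at the base before the RefSeq start site and is written 5′ to 3′ on the strand of the gene, with every CANNTG match in capitals. *NEUROG3* (chr10:69573423-69573672, minus strand) held a single match, of the form CAGCTG. *ATOH8* (chr2:85753741-85753990, plus strand) held a CAGCTG and a CAGATG. No match stood upstream of *NEUROD1* (chr2:181680518-181680767, minus strand) or *TCF3* (chr19:1652616-1652865, minus strand).
NEUROG3: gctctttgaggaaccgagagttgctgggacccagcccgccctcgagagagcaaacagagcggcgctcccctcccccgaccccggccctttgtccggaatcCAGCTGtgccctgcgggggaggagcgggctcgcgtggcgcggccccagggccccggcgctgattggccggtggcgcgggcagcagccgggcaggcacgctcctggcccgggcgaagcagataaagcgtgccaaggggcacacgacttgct
ATOH8: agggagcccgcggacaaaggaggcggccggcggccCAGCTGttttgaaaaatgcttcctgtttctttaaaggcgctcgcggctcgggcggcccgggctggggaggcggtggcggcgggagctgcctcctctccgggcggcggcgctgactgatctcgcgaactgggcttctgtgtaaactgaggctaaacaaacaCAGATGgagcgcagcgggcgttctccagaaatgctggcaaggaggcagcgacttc
NEUROD1: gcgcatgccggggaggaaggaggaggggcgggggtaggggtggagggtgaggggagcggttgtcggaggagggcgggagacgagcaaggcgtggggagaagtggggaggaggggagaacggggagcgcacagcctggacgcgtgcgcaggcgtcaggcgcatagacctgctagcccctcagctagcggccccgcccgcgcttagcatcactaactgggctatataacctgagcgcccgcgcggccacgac
TCF3: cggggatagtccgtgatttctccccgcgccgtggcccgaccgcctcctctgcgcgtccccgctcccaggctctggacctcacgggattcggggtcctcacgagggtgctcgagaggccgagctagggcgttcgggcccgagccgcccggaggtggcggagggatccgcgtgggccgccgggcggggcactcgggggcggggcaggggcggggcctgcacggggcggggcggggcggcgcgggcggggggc

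E-boxes were counted in start-site windows of 300 bases, 250 before and 50 after the start, which RefSeq (GRCh38.p14) gives for each annotated start. The 7 genes with a value had 20 such windows, of which 10 belonged to *TCF4* and 5 to *TCF12*. CANNTG, which reads the same on both strands, was found in 12 of the 20 windows (60%), and in 68.7% of the 35095 windows of all genes. CAGCTG, a form contained in CANNTG and also the same on both strands, was found in 2 of the 20 windows, those of *NEUROG3* and *ATOH8*, and in 17.9% of all windows. CATCTG or CAGATG, each the reverse complement of the other and contained in CANNTG, was found in 4 windows, that of *ATOH8* and 3 of *TCF4*, and in 14.7% of all windows. The CAGCTG of *NEUROG3* began 150 bases before the start site. In *ATOH8*, CAGCTG began 215 bases before the start, and its CAGATG matches began 55 bases and 1 base before it. With 3 CANNTG matches *ATOH8* had the most of the 20 windows, and 15.3% of all windows had 3 or more. These shares describe the letters in the windows and say nothing of whether a factor binds there.

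**Figure D1:**
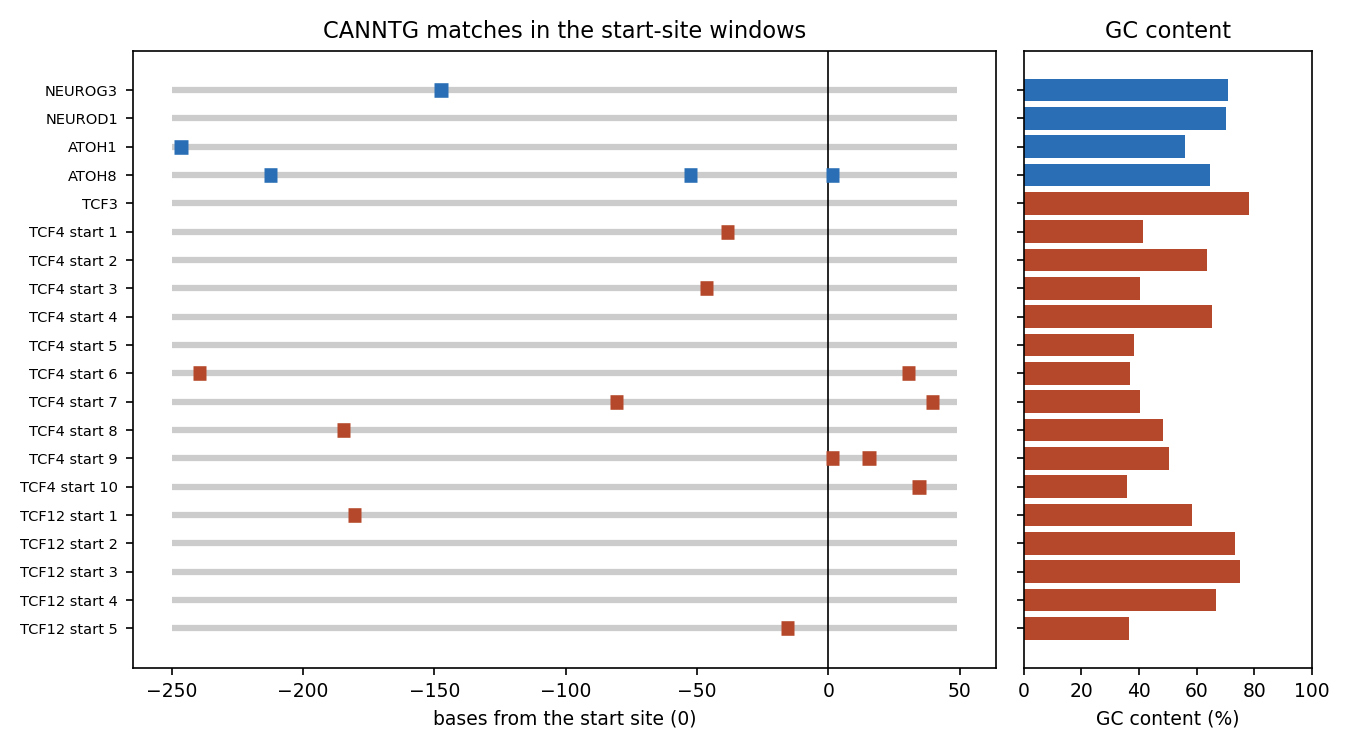
CANNTG matches in the start-site windows of the 7 genes with a value (left, bases from the start site, coloured marks) and GC content of each window (right, in %), with proneural factors in blue and E proteins in orange. The mark of *NEUROG3* begins 150 bases before the start, the windows of *NEUROD1* and *TCF3* carry no mark, and *TCF3* has the highest GC content, 78.3%.

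The windows also differed in base composition. GC content was 78.3% at *TCF3*, 71.0% at *NEUROG3*, 70.3% at *NEUROD1*, 64.7% at *ATOH8* and 56.0% at *ATOH1*, with a median of 58.7% over all windows. The *TCF3* window was richer in GC than 95.5% of all windows. Across the 10 starts of *TCF4* the content ran from 35.7% to 65.3%, and across the 5 starts of *TCF12* from 36.7% to 75.0%.

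The place of each gene among all genes was first taken from its mean normalised count, which also grows with the length of the transcript. *TCF3*, whose protein pairs with proneural factors in many tissues, had a mean normalised count of 9366, above 95.1% of all genes with a value. *TCF12*, a second broadly expressed E protein, had 5225 and lay above 89.7%. *TCF4*, an E protein not to be confused with the Wnt effector TCF7L2, had 593, above 56.8%. *TCF3* and *TCF12* thus stood in the upper group of a distribution with an upper and a lower mode, and *TCF4* lay between the modes.

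Among the proneural factors, *NEUROG3* had a mean normalised count of 450.8, above 53.9% of all genes. *ATOH1*, a fate factor of secretory cells in the gut and of hair cells in the ear, had 100.02 and lay above 40.2%. *NEUROD1*, which acts after *NEUROG3* in endocrine cells, had 71.2, above 37.0%. *ATOH8*, a more distant relative, had 38.7, above 30.5%. The median over all genes was 297.1, which *NEUROG3* exceeded and the other 3 proneural factors did not. This place of *NEUROG3* depended on the genes it was set against, since it lay above 45.8% of the genes listed at all 3 times and above 47.6% of those with a mean normalised count of at least 10, in both cases below the median. Of every 1000000 normalised counts summed over all genes, 8.47 fell to *NEUROG3*, 1.88 to *ATOH1*, 1.337 to *NEUROD1* and 0.727 to *ATOH8*.

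**Figure D2:**
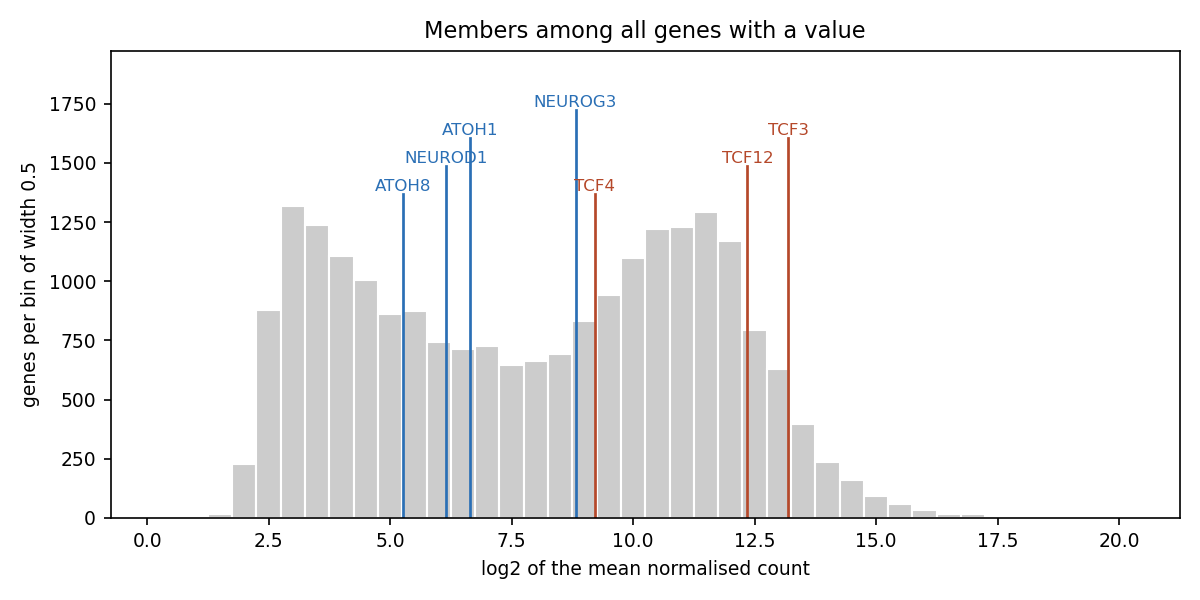
Histogram of the log2 mean normalised count of all 21944 genes with a value (grey, genes per bin of 0.5), with vertical lines at the members (blue for proneural factors, orange for E proteins). *ATOH8*, *NEUROD1* and *ATOH1* lie below the median of 297.1, and *TCF12* and *TCF3* lie in the upper mode.

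To set the levels of the members against each other, the mean normalised count was divided by length, in kilobases of the union of annotated exons. On this scale *TCF3* had 1471, *TCF12* 553.1, *NEUROG3* 289.0, *ATOH1* 45.2, *TCF4* 20.3, *NEUROD1* 8.67 and *ATOH8* 4.16. *TCF3* was 5.09-fold above *NEUROG3* per kilobase, and *NEUROG3* was 33.3-fold above *NEUROD1* and 6.39-fold above *ATOH1*. The distance to *NEUROD1* shrank to 14.6-fold with the longest transcripts and 10.5-fold with coding length, while that to *ATOH1* ran from 6.39-fold to 7.46-fold over the 4 lengths. The order of *TCF3*, *TCF12* and *NEUROG3* at the top and of *NEUROD1* and *ATOH8* at the bottom was the same with all 4 lengths used. *TCF4* and *ATOH1* changed places, with *TCF4* at 71.1 per kilobase of its longest transcript and *ATOH1* at 45.2. No spread between samples stands behind these values, so that whether neighbours in the order differ beyond that spread is unknown.

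**Figure D3:**
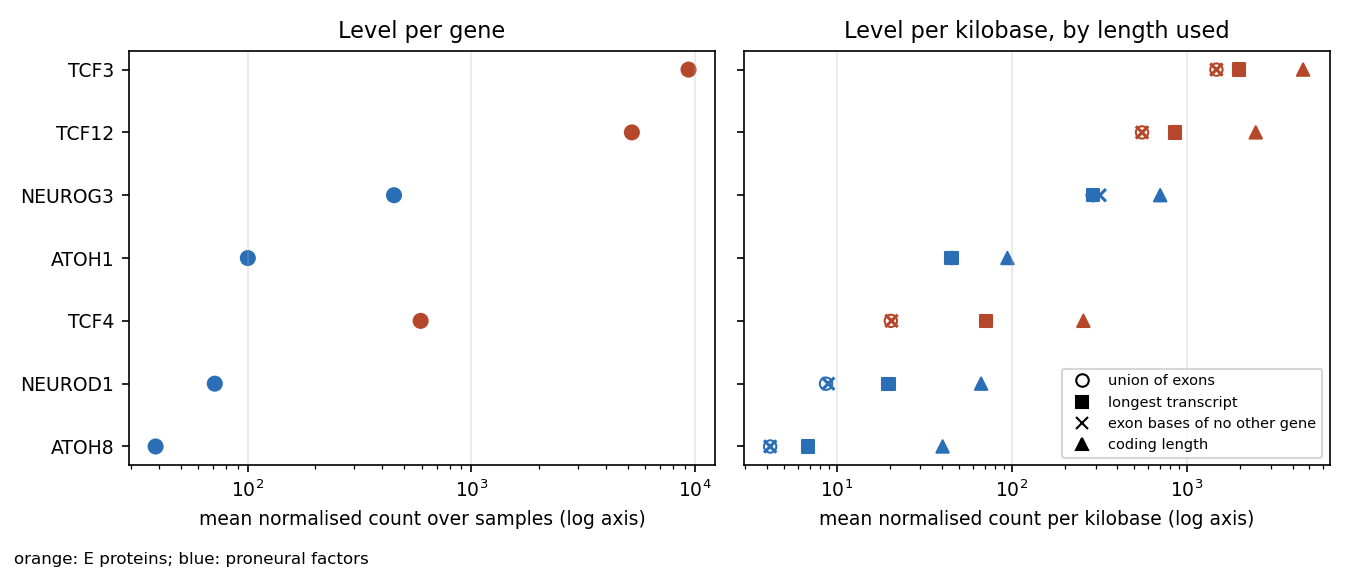
Mean normalised count over samples (left, log axis) and the same per kilobase (right, log axis) for the 7 genes with a value, with 4 lengths as separate symbols, E proteins in orange and proneural factors in blue. *TCF3*, *TCF12* and *NEUROG3* keep their order with each length, while *TCF4* moves from 20.3 to 71.1 when its longest transcript replaces the union of its exons.

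Summed over the 3 E proteins, the level was 2044 per kilobase, and summed over the 4 proneural factors it was 347.0, a ratio of 5.89. *TCF3* held 71.9% of the E protein sum, *TCF12* 27.1% and *TCF4* 0.995%. *NEUROG3* held 83.3% of the proneural sum, *ATOH1* 13.03%, *NEUROD1* 2.50% and *ATOH8* 1.20%. The small shares depended on the length. That of *TCF4* was 2.45% with the longest transcripts and 3.49% with coding length, that of *NEUROD1* 5.48% and 7.38%, and that of *ATOH8* 1.89% and 4.45%. The shares mix all 6 groups of samples and do not describe any of them alone.

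A mean over samples also sets an upper limit for each group. If the mean weights the 18 samples equally, the level in a group of 3 cannot exceed 6 times the mean, the value it would have if all counts came from that group. This limit was 52.0 per kilobase of exon for *NEUROD1*, 24.97 for *ATOH8* and 271.3 for *ATOH1*. Each lay under the mean of *TCF12* over all samples and, per kilobase of exon, above that of *TCF4*, 20.3. With the longest transcripts the mean was 6.84 for *ATOH8* and 71.1 for *TCF4*, and with coding length it was 40.2 and 255.8. With both of those lengths the limit of *ATOH8* lay under the mean of *TCF4*. For *NEUROG3* the limit was 1734, above the mean of *TCF3* per kilobase of exon but under its 1978 per kilobase of the longest transcript. It was above the mean of *TCF12* with either length. The level of an E protein in a single group can lie below its mean over all samples. These data therefore leave the levels of the proneural factors relative to the E proteins within a single group unknown.

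Exon bases of the members were little shared with other annotated genes. *ATOH1*, *ATOH8*, *TCF3* and *TCF12* shared no exon base with another gene. *NEUROG3* shared 139 exon bases (8.91%) with an antisense long non-coding RNA, ENSG00000236154, whose mean normalised count was 8.997. *NEUROD1* shared 236 exon bases (2.88%) with *CERKL* on the same strand, and *CERKL* had a mean normalised count of 22.2. *TCF4* shared 195 bases with the pseudogene *RPL21P126* and 65 with *TCF4-AS2*, both on the other strand. A processed pseudogene of *TCF3*, *TCF3P1* on chromosome 9, had a mean normalised count of 8.30, and how reads were divided between it and *TCF3* was not tested.

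Of the 4 ID genes, the antagonists of E proteins, *ID2* had the highest level, 2131 per kilobase of exon, followed by *ID1* with 1267, *ID4* with 605.4 and *ID3* with 309.8. With coding length *ID4* lay above *ID1*. Their sum of 4313 was 2.11 times the sum of the E proteins, and 1.61 to 2.90 times over the 4 lengths. Among the HES and HEY genes, *HES1*, the Notch target that represses *NEUROG3*, had 3910 per kilobase. This was the highest level per kilobase of exon among the members and the listed relatives, ID, HES and HEY genes and downstream genes. Per kilobase of coding length *ID2* was higher, with 11729 against 9584 for *HES1*. *HES4* had 2466 per kilobase of exon. *HES6*, an inhibitor of HES1 activity, had 999.7, *HEY1* 249.7 and *HEY2* 153.5. On this scale *HES7*, with 28.0, came next below *ATOH1*, and *HES2*, with 8.54, next below *NEUROD1*. In all, 12 of the 13 ID, HES and HEY genes had a value, and 9 of the 12 lay above the median of all genes, 76.2 per kilobase. Of the 21944 genes, 15355 were annotated as protein-coding, and places were lower among these. Per kilobase of exon *NEUROG3* lay above 70.2% of all genes and above 58.8% of the protein-coding ones. Listed genes and cell type markers were not counted against a median of protein-coding genes.

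Of 8 genes known to act downstream of *NEUROG3*, all 8 had a value and 3 lay above the median of all genes per kilobase of exon. *RFX6*, which is needed for islet cell formation and is also expressed earlier in the gut endoderm, had 1604 per kilobase. *NKX6-1*, a beta cell factor that progenitors also express, had 773.4, and *INSM1*, an early target of *NEUROG3*, had 198.7. *NKX2-2*, a factor that beta cell formation needs, had 51.9, next to *ATOH1*. Only 56.1% of its exon bases were free of other genes, and with those bases as length *NKX2-2* had 92.6 and *ATOH1* 45.2. The median of all genes was not taken with that length, so the count of 3 is given per kilobase of exon only. *PAX4* had 24.3, *FEV* 12.1, *ISL1* 10.7 and *PAX6* 1.20, so that *NEUROD1* at 8.67 lay just below *ISL1* and *FEV* per kilobase of exon. This order turned with the longest transcripts, where *NEUROD1* had 19.8, *FEV* 13.5 and *ISL1* 12.6, and with coding length, where they had 66.6, 26.6 and 28.9. Of 17 proneural relatives, 6 had a value, none of them above the median of all genes. *ASCL5* was the highest of these, with 15.8 per kilobase, followed by *ATOH7* with 15.4 and *PTF1A*, an acinar and early pancreatic factor, with 7.64, and *OLIG1* with 3.70. Of the 10 proneural factors and relatives with a value, *NEUROG3* alone lay above the median of all genes per kilobase of exon.

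**Figure D4:**
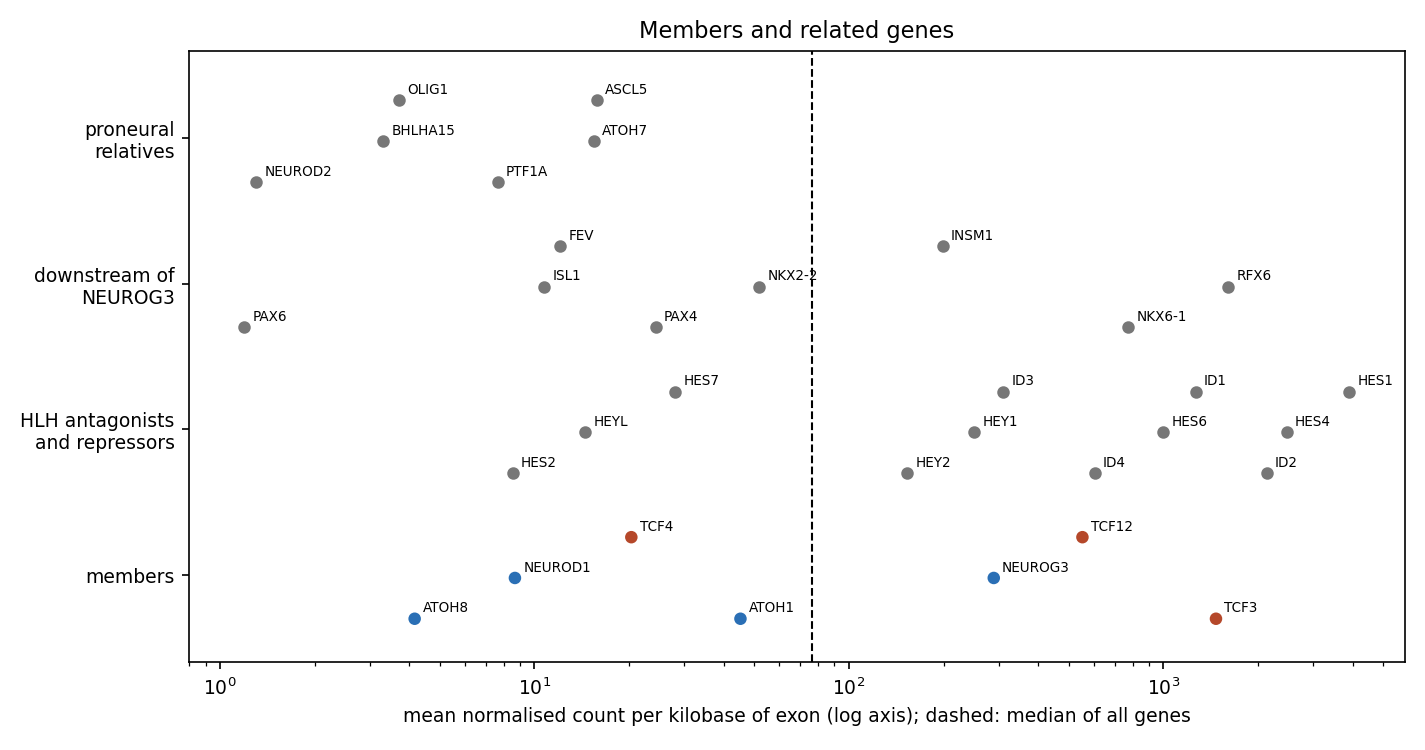
Mean normalised count per kilobase of exon (log axis) of the members and of the fixed lists of proneural relatives, genes downstream of *NEUROG3*, and ID, HES and HEY genes, with a dashed line at the median of all genes, 76.2. The 6 proneural relatives with a value all lie at or below 15.8, while *HES1* lies highest at 3910.

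The labelled cell type was checked against its markers. All 10 pancreatic progenitor markers had a value and 9 of them lay above the median of all genes per kilobase, with *GP2* at 33603, *SOX9* at 5259 and *PDX1* at 4969. The exception was *PTF1A* at 7.64. Genes listed as markers of other cell types were also present. Of the hepatic genes 4 of 4 lay above the median, with *TTR* at 26318, *APOA1* at 12416, *AFP* at 8334 and *ALB* at 186.5. So did 5 of 5 duct genes, led by *KRT19* at 22610. Whether the progenitors themselves expressed these genes was not tested. Of 6 endocrine markers, *CHGA* at 1426 and *SST* at 957.7 were above the median, while *INS* had 12.7 and *GCG* 6.87. Of the acinar genes 3 of 4 with a value lay above it, of the mesenchymal 2 of 4 and of the neural 0 of 3. Of the intestinal genes with a value 1 of 3 did (*CDX2*, 1011), and *CDX1* had no value. Of the pluripotent genes with a value 1 of 3 did (*LIN28A*, 2599), with *DPPA4* at 75.4 and *SOX2* at 3.76. *POU5F1* and *NANOG* had no value. What share of each member's level came from other cell types was not tested.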

How the data were processed

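Reads of 18 poly(A) RNA libraries were aligned by the authors with STAR 2.7.2d to GRCh38.p13, counted per gene with the GENCODE v32 annotation and normalised with DESeq2 1.34.0, according to the methods and the submitters' processing notes. Which strand setting the counts used is not given in the sources used here. The deposited table holds, for each gene and time, a mean normalised count, a signal averaged by the authors across samples. It was the same at all times for a gene, with a largest relative gap of 4.89e-07. The table does not name the samples that entered the mean. Its other columns hold the authors' own comparisons of LN411 with FN (fold changes, standard errors, statistics and p-values), which were not used. The count model planned for LN411 against FN needs values per sample and was therefore not run, and depth and precision per sample are unknown. The members and gene lists were chosen with earlier results of these data known.

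It holds 21944 genes, of which 20233 have an entry for 3 h, 21140 for 6 h and 19569 for 24 h, and its lowest mean normalised count is 2.70. Exon lengths, transcripts, positions and shared exon bases were taken from GENCODE v44 on GRCh38, matched by Ensembl identifier for 99.6% of genes. The counts rest on v32, and how far exon lengths differ between the versions was not tested. E-boxes were counted in 35095 RefSeq start-site windows of GRCh38.p14, matched by symbol for 7 members. All members were named, with the 4 highest genes of each list and those next to a member in the order per kilobase, and further genes were chosen after their values were seen. Some listed genes are not reported here. Calculations used Python 3.11.15, numpy 2.4.6 and pandas 2.3.3, and length, motif and rank functions were tested on simulated data.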

Additional observations from a re-analysis of the deposited data

How the results depend on the processing

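No paired analysis was possible because no value of a single sample was used, and for the same reason other normalisations, count filters, tools and fits without single samples were not run. The comparison of the proteins was not run because no protein sequences were used here. With the longest transcript as length, the E protein shares were 68.1% for *TCF3*, 2.45% for *TCF4* and 29.4% for *TCF12*, and the ratio of E proteins to proneural factors was 8.05. With exon bases that no other gene covers, the share of *TCF4* was 1.004% and the ratio 5.44. With coding length, the shares were 62.8%, 3.49% and 33.7%, and the ratio 8.11. In the order per kilobase, 5 of the 7 genes kept their place with the longest transcript and with coding length, and 7 with uncovered exon bases. Windows of 150 bases, from 100 before to 50 after the start, held CANNTG in 8 of 20 cases, CAGCTG in 0 and CATCTG or CAGATG in 3. Among the windows of all genes at this length, the shares were 45.6%, 10.3% and 7.43%. Place by mean normalised count also depended on the genes it was counted in. *NEUROG3* moved from above to below the median, at 45.8% of the genes listed at all 3 times and 47.6% of those with a mean normalised count of at least 10, and *TCF4* lay at 49.2% and 51.0%.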
